A study of Arabidopsis thaliana with 12 samples.

Results

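The 10 CESA genes of Arabidopsis thaliana encode the catalytic subunits of cellulose synthase. They were taken from the deposited count table by their locus codes, 10 of 37336 genes listed. Their transcripts were counted by RNA sequencing of whole seedlings 3 days past germination, in 4 groups of 3 libraries. The groups were er erl2 seedlings given IAA, er erl2 seedlings given the mock treatment, wild-type seedlings given IAA and wild-type seedlings given the mock treatment. The er erl2 double mutant carries er-105 and erl2-1, alleles of ERECTA (ER) and ERECTA-LIKE 2 (ERL2), which encode receptor kinases, and the wild type was the Col-0 accession. IAA (indole-3-acetic acid) is the main natural auxin and was given at 1 µM for 30 min in 0.02% DMSO, the solvent that the mock seedlings received alone. All groups shared a period in liquid medium before the treatment. The labels give a replicate number to each library but do not say whether replicates were separate cultures, so p-values measure the spread between these libraries, which may be partly technical.

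Cellulose synthase works at the plasma membrane as a rosette-shaped complex of several CESA proteins that spins parallel glucan chains into a microfibril. The complex of growing cells, which makes the primary wall, is built from CESA1, CESA3 and a member of the CESA6 class (CESA2, CESA5, CESA6 and CESA9), while the complex of xylem vessels and fibres, which makes the secondary wall, is built from CESA4, CESA7 and CESA8. CESA10 is the closest relative of CESA1. Within the CESA6 class, CESA6 carries most of the function in elongating seedlings, CESA2 and CESA5 can partly stand in for it, and CESA5 also acts in the seed coat.

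By the RefSeq annotation of TAIR10.1, the members lay on chromosomes 2, 4 and 5, outside any tight cluster. CESA1 (AT4G32410) occupied chr4:15640490-15646844 on the minus strand with 14 exons, CESA2 (AT4G39350) chr4:18296388-18302192 on the plus strand with 13 exons, and CESA8 (AT4G18780) chr4:10312624-10316886 on the minus strand with 12 exons. On chromosome 5, CESA3 (AT5G05170) occupied chr5:1530132-1535558 on the minus strand with 15 exons, CESA4 (AT5G44030) chr5:17714390-17719723 on the plus strand with 12 exons, and CESA5 (AT5G09870) chr5:3072870-3078416 on the plus strand with 13 exons. CESA6 (AT5G64740) occupied chr5:25881033-25886728 on the plus strand with 13 exons, and CESA7 (AT5G17420) chr5:5736630-5741500 on the minus strand with 12 exons. CESA9 (AT2G21770) occupied chr2:9284391-9289744 on the plus strand with 13 exons, and CESA10 (AT2G25540) chr2:10866822-10872243 on the minus strand with 14 exons. RefSeq lists CESA3, CESA7 and CESA8 under the symbols CEV1, IRX3 and IRX1.

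The members share the catalytic signature QVLRW, which was found once in each predicted protein, at residue 818 in CESA1, residue 803 in CESA3, residue 823 in CESA6 and residue 815 in CESA4. The 45 bases of coding sequence around it (RefSeq, TAIR10.1, spliced, coding strand) are shown because they let the likeness of the members be seen directly, with the codons of QVLRW in capitals.
CESA1: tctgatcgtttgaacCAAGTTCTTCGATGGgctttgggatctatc
CESA10: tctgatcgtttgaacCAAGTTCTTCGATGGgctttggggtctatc
CESA3: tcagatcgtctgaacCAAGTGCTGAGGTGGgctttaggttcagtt
CESA2: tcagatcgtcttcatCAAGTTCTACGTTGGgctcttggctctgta
CESA5: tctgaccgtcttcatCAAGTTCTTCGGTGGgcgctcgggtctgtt
CESA6: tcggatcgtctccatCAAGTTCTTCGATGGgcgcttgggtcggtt
CESA9: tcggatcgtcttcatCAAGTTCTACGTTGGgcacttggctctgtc
CESA4: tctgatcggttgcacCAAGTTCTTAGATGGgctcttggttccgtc
CESA7: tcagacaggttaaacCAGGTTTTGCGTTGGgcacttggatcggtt
CESA8: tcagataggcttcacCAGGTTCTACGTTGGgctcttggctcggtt
CESA10 differed from CESA1 at 1 of the 45 bases, and the secondary wall genes CESA7 and CESA8 at 15 each. Over the whole predicted proteins, CESA5 and CESA6 were identical at 91.8% of aligned residues, CESA2 and CESA9 at 88.2%, and CESA1 and CESA10 at 86.5%. The members could nevertheless be told apart by reads: in CESA1, CESA2 and CESA9, 0 of the 50-base stretches of transcript also occurred in another gene, and CESA5 and CESA6 shared 1 such stretch of 4089 and 4123. The larger sharing was with overlapping neighbours, at 14.1% of the 50-base stretches in CESA8 and 1.13% in CESA10. CESA8 overlaps AT4G18770 on the opposite strand, and the strand setting of the counting is not given in the sources used here, so the level of CESA8 is uncertain to that extent. CESA1, CESA3, CESA4, CESA7 and CESA10 also overlap a neighbouring gene, with 1.13% or less of their 50-base stretches shared.

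The 250 bases before the annotated gene start are shown for CESA1, CESA3 and CESA6, the primary wall genes whose levels moved with genotype below. They are also shown for CESA4, a secondary wall gene (RefSeq, TAIR10.1, written on the strand of the gene). Capitals mark every match, on either strand, to the motifs searched. These were the tracheary element motif TERE (CTTNAAAGCNA, where N is any base), the secondary wall MYB element in its 8 spellings (ACCAAAT or ACCAAAC or ACCAACT or ACCAACC or ACCTAAT or ACCTAAC or ACCTACT or ACCTACC), and the auxin response elements TGTCTC and TGTCGG.
CESA1, chr4:15646845-15647094, minus strand: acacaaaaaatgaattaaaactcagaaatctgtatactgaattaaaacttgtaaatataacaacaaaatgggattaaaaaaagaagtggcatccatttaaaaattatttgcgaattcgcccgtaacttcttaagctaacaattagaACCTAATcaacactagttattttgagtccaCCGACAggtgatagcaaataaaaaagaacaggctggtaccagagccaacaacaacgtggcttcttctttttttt
CESA3, chr5:1535559-1535808, minus strand: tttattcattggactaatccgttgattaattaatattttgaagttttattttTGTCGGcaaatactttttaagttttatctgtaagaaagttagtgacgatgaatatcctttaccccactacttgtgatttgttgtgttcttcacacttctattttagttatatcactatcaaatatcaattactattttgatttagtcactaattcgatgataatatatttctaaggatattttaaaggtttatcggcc
CESA6, chr5:25880783-25881032, plus strand: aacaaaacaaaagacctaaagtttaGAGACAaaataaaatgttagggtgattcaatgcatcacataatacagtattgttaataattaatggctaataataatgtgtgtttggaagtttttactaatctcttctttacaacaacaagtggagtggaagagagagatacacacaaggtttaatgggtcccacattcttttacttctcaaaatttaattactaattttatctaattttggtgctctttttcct
CESA4, chr5:17714140-17714389, plus strand: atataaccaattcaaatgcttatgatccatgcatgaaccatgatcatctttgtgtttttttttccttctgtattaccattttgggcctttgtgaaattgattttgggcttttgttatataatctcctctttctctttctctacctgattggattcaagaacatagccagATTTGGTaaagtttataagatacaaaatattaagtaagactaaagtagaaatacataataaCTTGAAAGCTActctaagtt
TERE, which is known from genes switched on in tracheary elements, occurred in CESA4 alone among the members, 20 to 10 bases before the gene start, and in 101 of 27443 promoters of the same length (0.368%). The secondary wall MYB element occurred in CESA1, CESA4, CESA5 and CESA9, that is in primary as well as secondary wall genes, and in 29.4% of all promoters. TGTCTC occurred in CESA6, CESA8 and CESA9 (10.9% of all promoters), and TGTCGG in CESA1 and CESA3 (4.16%). CESA2, CESA7 and CESA10 held no match, so the motifs of CESA4 do not stand for the secondary wall genes as a class. The motifs did not overlap one another in these windows, and a match describes letters only.

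The libraries held 28930625 to 35837999 counts each, with scaling factors from 0.973 to 1.024, and replicates of a group differed by more than counting noise in each pair. ER averaged 7.33 ± 0.926 CPM (counts scaled to the size of the library) in er erl2 and 55.3 ± 3.13 CPM in wild type under IAA. Under mock it averaged 6.55 ± 1.86 CPM in er erl2 and 60.6 ± 3.44 CPM in wild type (SD, n = 3 each). The lower ER level goes with the genotype labels. ERL2 was lower by log2 fold changes of -1.97 (SE 0.168) under IAA and -1.97 (SE 0.164) under mock. Markers of xylem (6 of 6), root hair (4 of 4) and photosynthetic shoot cells (4 of 4) were all detected in every group, while of 7 seed and embryo markers 2 were tested and 0 called in any genotype comparison. Of these, the storage protein gene SESA2 had 62 to 185 counts per library and SESA1 7 to 43, whereas CRC and SESA3 stayed at or below 3. The count filter was passed by 9 of the 10 members, and 21376 genes in all were tested.

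CESA transcripts spanned a wide range of levels, and the order was nearly the same in each library. Levels are given in RPKM, the CPM divided by exon length in kilobases, so that genes of different length can be set side by side. Between CESA3 and CESA9, the highest and the lowest member that passed the filter, the ratio of median RPKM was 1012. CESA3 was the most abundant with a median of 257.9 RPKM over the 12 libraries (range 227.4 to 308.9), followed by CESA1 with 174.5 RPKM (133.1 to 197.9) and CESA6 with 124.1 RPKM (114.8 to 148.3). CESA2 and CESA5, the substitutes of CESA6, had medians of 41.3 RPKM (37.6 to 45.0) and 35.7 RPKM (24.3 to 38.4). Each member stood above the next in the order in 12 of 12 libraries, except that CESA2 stood above CESA5 in 11 of 12. The ranges over all libraries overlapped between CESA1 and CESA6, between CESA2 and CESA5, and between CESA7 and CESA8, so these neighbours are ordered only within a library.

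The secondary wall genes were expressed at a low level in each group. CESA4 had a median of 8.34 RPKM (7.58 to 9.52), CESA7 of 6.26 RPKM (5.33 to 7.54) and CESA8 of 5.04 RPKM (4.63 to 5.84). Together they made up 2.65% to 3.67% of the summed family level. CESA4 stood above CESA8 by a ratio of 1.44 to 1.87 in RPKM. In bulk seedlings, fewer xylem cells and less RNA per xylem cell cannot be told apart.

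The remaining primary wall members were scarce. CESA9 had a median of 0.255 RPKM and 16 to 57 counts per library. CESA10 had 26 counts over all 12 libraries. It had 7, 0 and 7 counts in er erl2 under IAA, 1, 3 and 3 in er erl2 under mock, 2, 0 and 0 in wild type under IAA, and 2, 0 and 1 in wild type under mock. It did not pass the filter, and since both wild-type groups lay below the floor of 3 counts per library, no fold change is given for it. These limits cover counting error only.

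**Figure D1:**
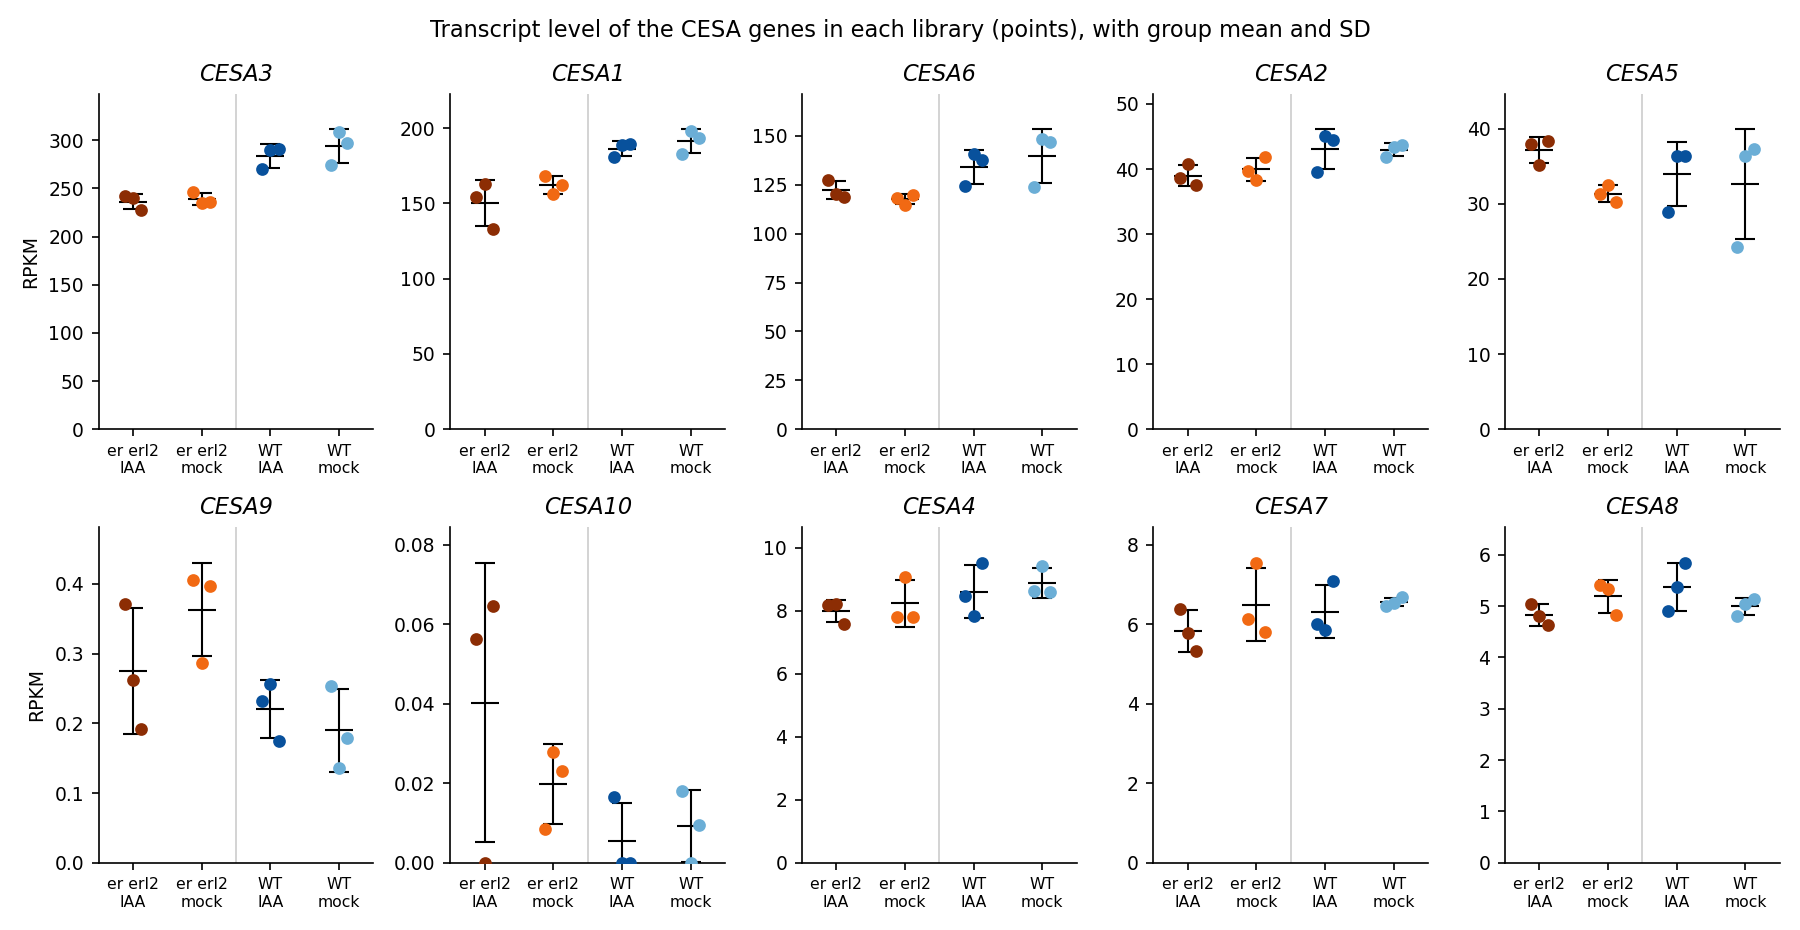
Level of each CESA gene in RPKM (vertical axes, linear, starting at 0, scaled for each gene) in the 12 libraries, with er erl2 left of wild type in each panel; points are libraries and bars the group mean and SD (n = 3). CESA3 and CESA1 lie lower in all 6 er erl2 libraries than in all 6 wild-type libraries, whereas CESA4, CESA7 and CESA8 overlap between the genotypes.

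The genotypes differed in the core subunits of the primary wall complex. Over both treatments, CESA1, CESA3, CESA6 and CESA2 were lower in er erl2 than in wild type and CESA9 was higher, while CESA5 and the 3 secondary wall genes did not pass the test. The genotype effect in general was wide: of all genes tested, 27.8% were called in this comparison (an adjusted p under 0.05), 13.7% lower and 14.1% higher in er erl2. Against this, 4 of 9 tested members were called lower and 1 of 9 higher. The median log2 fold change was -0.16 over the 6 tested primary wall genes and -0.06 over the 3 secondary wall genes, against -0.01 over all genes. The difference between the classes was not tested.

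CESA3, a subunit that no other member replaces, had 241.6, 239.5 and 227.4 RPKM in er erl2 under IAA, against 269.6, 289.6 and 291.1 RPKM in wild type under IAA. Under mock it had 246.1, 235.3 and 236 RPKM in er erl2, against 274.3, 308.9 and 297.2 RPKM in wild type. The 6 er erl2 libraries all lay below the 6 wild-type libraries. Over both treatments CESA3 fell by 17.6%, a log2 fold change of -0.28 (SE 0.0404, 95% interval -0.37 to -0.19, edgeR adjusted p = 0.000148). The fall was -0.26 (SE 0.0571, adjusted p = 0.00696) under IAA and -0.30 (SE 0.0571, adjusted p = 0.00294) under mock on the log2 scale. These calls were kept in all 18 or 19 alternatives run for each comparison.

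CESA1, the other invariant subunit, had 154.5, 163 and 133.1 RPKM in er erl2 under IAA, against 180.5, 188.9 and 189.3 RPKM in wild type under IAA. Under mock it had 168.4, 155.9 and 162.3 RPKM in er erl2, against 182.9, 197.9 and 193.4 RPKM in wild type. Again no er erl2 library reached the lowest wild-type library. Over both treatments CESA1 fell by 17.3%, a log2 fold change of -0.27 (SE 0.0486, 95% interval -0.38 to -0.17, edgeR adjusted p = 0.000782), called in 18 of 18 alternatives. With IAA present it fell by 0.31 on the log2 scale (SE 0.0687, adjusted p = 0.00788). Under mock it was -0.24 (SE 0.0687, adjusted p = 0.0299), and this call was lost without er erl2 mock replicate 2 (adjusted p = 0.112) or 3 (adjusted p = 0.0856) and without wild type mock replicate 2 (adjusted p = 0.106) or 3 (adjusted p = 0.073). The ratio of CESA1 to CESA3 in RPKM was 0.585 to 0.688 in er erl2 and 0.641 to 0.670 in wild type, so the balance of the core pair overlapped between the genotypes.

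CESA6, the leading member of its class, had 127.4, 120.3 and 118.8 RPKM in er erl2 under IAA, against 124.2, 140.6 and 137.8 RPKM in wild type under IAA. Under mock it had 118, 114.8 and 119.9 RPKM in er erl2, against 124.1, 148.3 and 146.9 RPKM in wild type. The genotypes did not overlap under mock and overlapped under IAA through 1 high er erl2 library and 1 low wild-type library, both replicate 1. Over both treatments CESA6 fell by 12.5%, a log2 fold change of -0.19 (SE 0.05, adjusted p = 0.0104), called in 18 of 18 alternatives. Under mock the log2 fold change was -0.25 (SE 0.0707, adjusted p = 0.0279), and under IAA it was -0.14 (SE 0.0707, adjusted p = 0.227). The mock call was lost without any 1 of er erl2 mock replicates 1, 2 and 3 and wild type mock replicates 2 and 3 (adjusted p = 0.0645 to 0.118).

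Under mock alone, 3 of 9 members were called (CESA1, CESA3 and CESA6, all lower), against 15.7% of all genes, or 7.33% lower in er erl2. Under IAA alone, 2 of 9 were called (CESA1 and CESA3, both lower), against 14.0% of all genes, or 6.84% lower. These shares of all genes themselves depended on single libraries. With er erl2 mock replicate 2 left out, 2158 of 21588 genes were called under mock; the share was 9.53% with er erl2 mock replicate 3 left out and 9.39% without wild type mock replicate 2. The share under IAA was 9.02% without er erl2 IAA replicate 3 and 9.13% without wild type IAA replicate 1. The mock and IAA comparisons use different libraries. That CESA6 was called in one treatment and not in the other shows no difference between them: its interaction was 0.11 (SE 0.0999, adjusted p = 0.861) on the log2 scale.

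Of the less abundant members of the CESA6 class, CESA2 and CESA9 passed the test over both treatments, in opposite directions, and CESA5 did not pass it. CESA2 had 38.6, 40.7 and 37.6 RPKM in er erl2 under IAA, against 39.5, 45.0 and 44.5 RPKM in wild type under IAA. Under mock it had 39.6, 38.4 and 41.9 RPKM in er erl2, against 41.9, 43.4 and 43.7 RPKM in wild type. The genotypes overlapped in each treatment. Its log2 fold change over both treatments was -0.12 (SE 0.0429, adjusted p = 0.0432), close to the threshold. The call was lost in 11 of 18 alternatives, among them leaving out any 1 of 8 libraries: er erl2 IAA replicates 1 and 3, er erl2 mock replicates 1 and 2, wild type IAA replicates 2 and 3 and wild type mock replicates 2 and 3 (adjusted p = 0.0785 to 0.11).

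CESA5, whose predicted protein is the most like that of CESA6, did not pass the test in any genotype comparison. It had 37.9, 35.2 and 38.4 RPKM in er erl2 under IAA, against 29.0, 36.4 and 36.3 RPKM in wild type under IAA. Under mock it had 31.3, 32.5 and 30.2 RPKM in er erl2, against 24.3, 36.3 and 37.3 RPKM in wild type. The wild-type libraries were spread widely, since replicate 1 of both treatments was low. The log2 fold change over both treatments was 0.04 (SE 0.101, 95% interval -0.19 to 0.26, adjusted p = 0.825), an interval whose lower end lies at the CESA6 estimate of -0.19. The difference between CESA5 and CESA6 was not tested. The value was -0.051 without wild type mock replicate 1. The ratio of CESA5 to CESA6 in RPKM was 0.297, 0.292 and 0.323 in er erl2 under IAA, against 0.233, 0.259 and 0.264 in wild type under IAA. Under mock the ratio was 0.265, 0.283 and 0.252 in er erl2, against 0.196, 0.245 and 0.254 in wild type. The genotypes did not overlap under IAA and overlapped under mock. This ratio was chosen after the values were seen and was not tested.

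CESA9, which is best known from the seed coat and embryo, had 51, 31 and 23 counts in er erl2 under IAA, against 31, 34 and 21 in wild type under IAA. Under mock it had 52, 34 and 57 counts in er erl2, against 31, 16 and 21 in wild type. At these depths counting error alone is large. The mock libraries did not overlap in count and the IAA libraries did. Over both treatments the log2 fold change was 0.63 (SE 0.219, adjusted p = 0.0448), with 0.93 (SE 0.309, adjusted p = 0.0546) under mock and 0.32 (SE 0.309, adjusted p = 0.534) under IAA. The call over both treatments was lost without any 1 of 9 libraries, namely er erl2 IAA replicates 1 and 2, er erl2 mock replicates 1 and 3, each wild type IAA replicate and wild type mock replicates 2 and 3 (adjusted p = 0.0519 to 0.134). The mock difference passed without wild type mock replicate 1 (adjusted p = 0.0311) or er erl2 IAA replicate 3 (adjusted p = 0.045). It passed narrowly without er erl2 IAA replicate 1, where the adjusted p lay just under the threshold and rounds to 0.05. Of the 3 seed coat markers 2 were tested. MUM2, at 1799 to 3033 counts per library, was higher in er erl2 over both treatments (log2 fold change 0.38, SE 0.0838, edgeR adjusted p = 0.00493). TT10, at 0 to 19 counts, was at 0.06 (edgeR adjusted p = 0.943), and BAN stayed at or below 4 counts in each library. With TT10 and BAN at such low counts, the 3 markers cannot show whether the amount of seed coat differed between the genotypes. The part of seed coat remnants in the CESA9 difference was not tested.

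CESA4, CESA7 and CESA8 did not pass the test in any genotype comparison. CESA4 had 8.17, 8.22 and 7.58 RPKM in er erl2 under IAA and 7.81, 9.08 and 7.81 RPKM in er erl2 under mock. In wild type it had 8.47, 7.84 and 9.52 RPKM under IAA and 8.62, 9.43 and 8.61 RPKM under mock. Its log2 fold change over both treatments was -0.11 (95% interval -0.23 to 0.02, adjusted p = 0.184). CESA7 had 6.39, 5.78 and 5.33 RPKM in er erl2 under IAA and 6.13, 7.54 and 5.81 RPKM in er erl2 under mock. In wild type it had 6.004, 5.856 and 7.087 RPKM under IAA and 6.46, 6.53 and 6.67 RPKM under mock. Its log2 fold change over both treatments was -0.06 (95% interval -0.22 to 0.09, adjusted p = 0.56). CESA8 had 5.04, 4.81 and 4.63 RPKM in er erl2 under IAA and 5.404, 5.341 and 4.825 RPKM in er erl2 under mock. In wild type it had 4.91, 5.37 and 5.84 RPKM under IAA and 4.81, 5.05 and 5.13 RPKM under mock, with a log2 fold change over both treatments of -0.05 (95% interval -0.17 to 0.07, adjusted p = 0.573). The genotypes overlapped for each of the 3 genes. The interval of CESA8 lies above the estimate of -0.28 for CESA3, and those of CESA4 and CESA7 do so as well. However, the intervals of CESA4 and CESA7 overlap that of CESA3 (-0.37 to -0.19) and hold the CESA6 estimate of -0.19. The called CESA2, at -0.12, also lies near the uncalled CESA4. Secondary wall genes were not tested against primary wall genes.

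**Figure D2:**
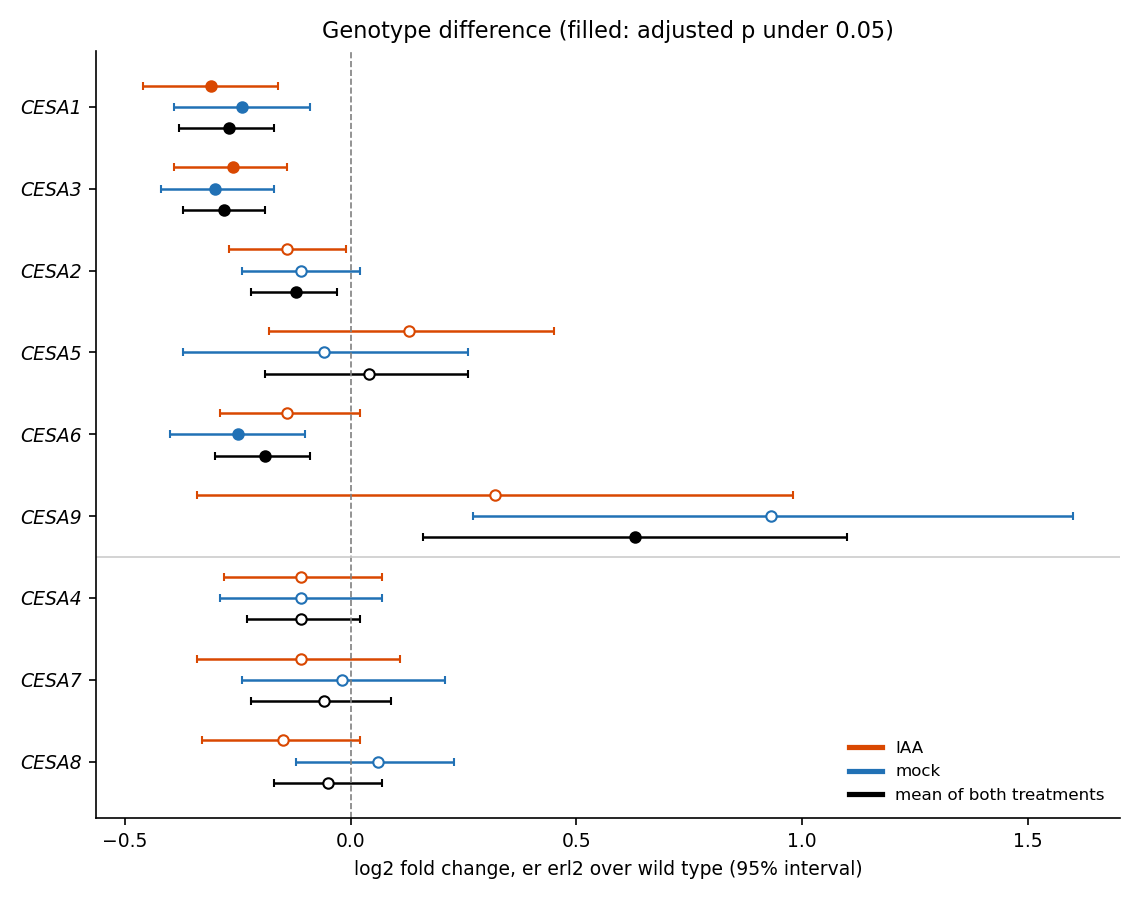
Log2 fold change of er erl2 over wild type (horizontal axis) for the 9 tested CESA genes, primary wall genes above the grey line and secondary wall genes below it; points are estimates under IAA, under mock and over both treatments, bars 95% intervals, and filled points have an adjusted p under 0.05. CESA1 and CESA3 lie left of 0 in each comparison, CESA9 has the widest interval, and the 3 secondary wall genes span 0.

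Summed per library, the primary wall genes reached 600.4, 598.9 and 555.5 RPKM in er erl2 under IAA, against 643, 700.9 and 699.2 RPKM in wild type under IAA. Under mock the sum was 603.8, 577.2 and 590.8 RPKM in er erl2, against 647.7, 735 and 718.6 RPKM in wild type. All er erl2 libraries lay below all wild-type libraries, with wild type replicate 1 the lowest of its genotype in both treatments. The secondary wall sum was 17.5 to 22.0 RPKM in er erl2 and 19.1 to 22.5 RPKM in wild type and overlapped. The CESA6 class stood at 0.769 to 0.858 of the CESA3 level in er erl2 (median 0.818) and at 0.695 to 0.768 in wild type (median 0.745). CESA3 alone gave 227.4 to 246.1 RPKM of the sum in er erl2 and 269.6 to 308.9 RPKM in wild type. These sums and ratios are descriptions with no test, since the members were chosen with earlier results known.

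**Figure D3:**
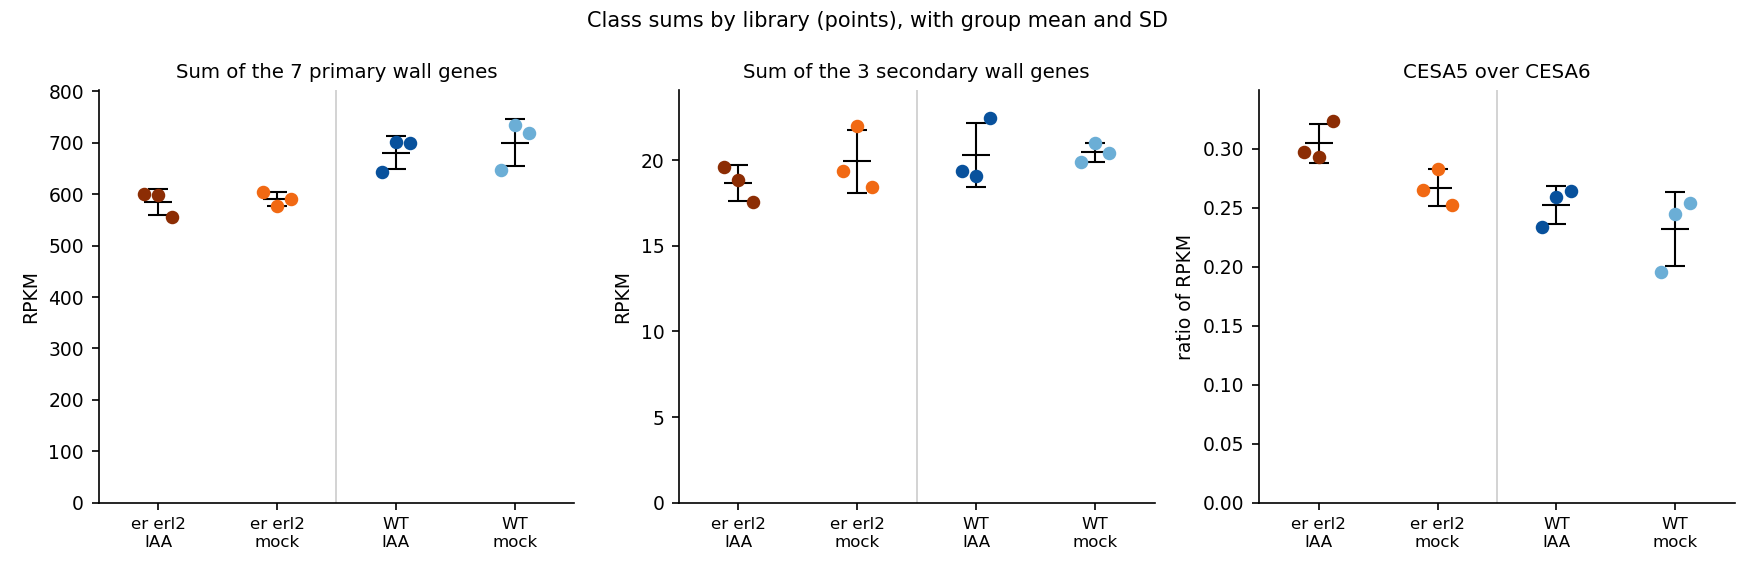
Summed level in RPKM of the 7 primary wall genes (left) and the 3 secondary wall genes (middle), and the ratio of CESA5 to CESA6 in RPKM (right), in each library; points are libraries, bars group mean and SD (n = 3), and all vertical axes are linear and start at 0. The primary wall sum runs from 555.5 to 603.8 in er erl2 and from 643 to 735 in wild type, while the secondary wall sum overlaps.

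IAA for 30 min changed none of the 9 tested members in edgeR's test. In er erl2, 0 members were called, against 1.53% of all genes, and in wild type 0 members, against 1.21% of all genes. Over both genotypes 0 members were called, against 2.65% of all genes. None of the 9 had an unadjusted p under 0.05 in these comparisons, and 0 members were called in any of the 18 or 19 alternatives, DESeq2 and limma-voom included. The estimates over both genotypes lay between -0.10 for CESA7 (95% interval -0.26 to 0.05) and 0.15 for CESA5 (95% interval -0.07 to 0.37) on the log2 scale. CESA1 was at -0.08 (95% interval -0.18 to 0.03).

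The CESA5 libraries of er erl2 did separate, at 35.2 to 38.4 RPKM under IAA and 30.2 to 32.5 RPKM under mock. The log2 fold change was 0.25 in er erl2 (SE 0.143, 95% interval -0.07 to 0.56, adjusted p = 0.587) and 0.06 in wild type (SE 0.143, 95% interval -0.26 to 0.37, adjusted p = 0.936). The wide SE of CESA5 goes with the low count in wild type mock replicate 1, at 3097 against 4447 and 4571 in the other mock libraries of that genotype. Without that library the estimate in wild type was -0.12. CESA1 had a log2 fold change of -0.11 (SE 0.0687, adjusted p = 0.604) with IAA in er erl2, where the third IAA library was its lowest.

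The genotype by IAA interaction was called for 0 of 9 members and for 0 of 21376 genes in edgeR, which is 0% of the genes tested, with 1279 genes at an unadjusted p under 0.05. Leaving out wild type mock replicate 1, 2 or 3 gave 7, 1 and 1 genes. DESeq2 called 15 genes, with 0 members among them. The smallest unadjusted p among the members was that of CESA8, at 0.0933. CESA8 had log2 fold changes with IAA of -0.10 (SE 0.0816) in er erl2 and 0.10 (SE 0.0816) in wild type, and an interaction of -0.21 (95% interval -0.45 to 0.04, adjusted p = 0.806). CESA9 had an interaction of -0.61 (95% interval -1.55 to 0.33, adjusted p = 0.837), with a log2 fold change with IAA of -0.39 in er erl2 and 0.22 in wild type. Leaving out 1 library moved these uncalled values to between -0.68 (without er erl2 IAA replicate 1) and -0.19 (without er erl2 IAA replicate 3) in er erl2, and to between 0.03 (wild type mock replicate 2 left out) and 0.49 (replicate 1 left out) in wild type. The interaction of CESA5 was 0.19 (95% interval -0.26 to 0.64, adjusted p = 0.885).

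**Figure D4:**
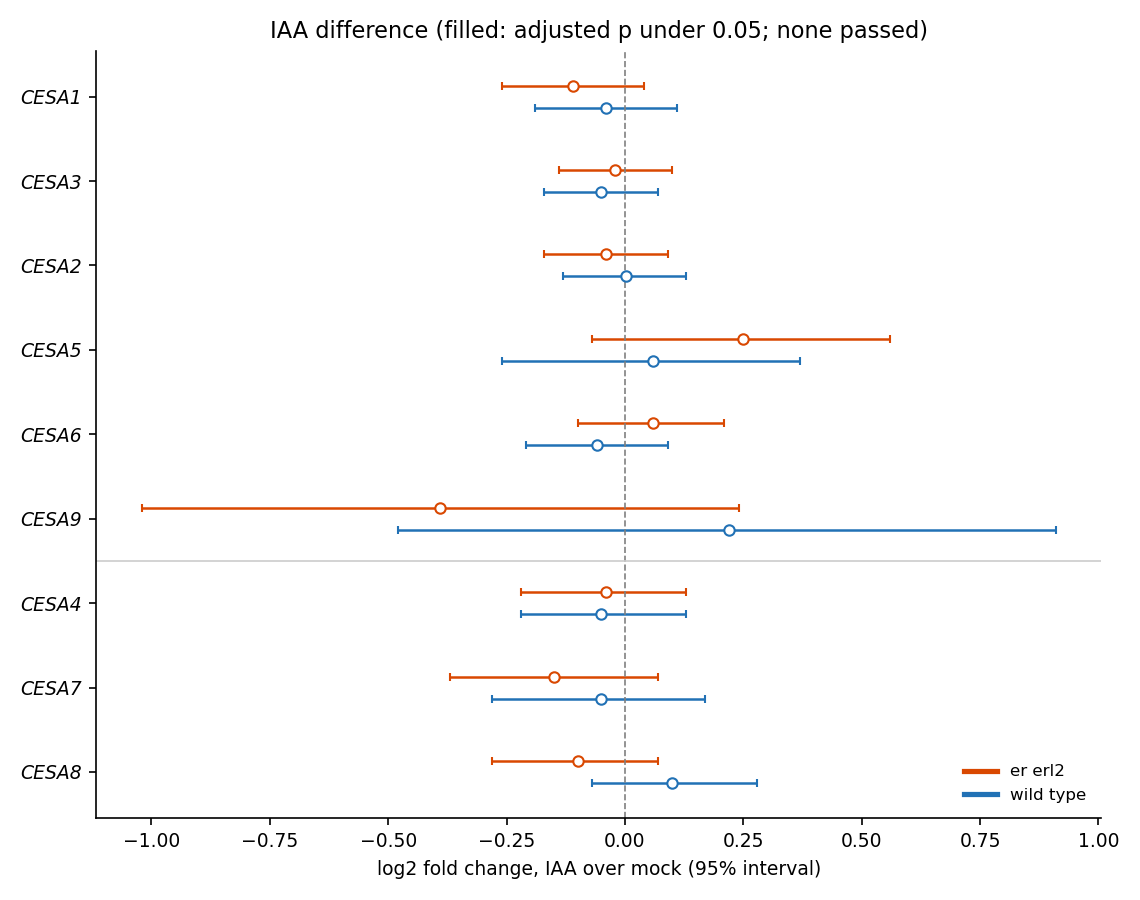
Log2 fold change of IAA over mock (horizontal axis) in er erl2 and in wild type for the 9 tested CESA genes, with 95% intervals; open points have an adjusted p of 0.05 or more. All 18 points are open, and the intervals of each gene overlap between the genotypes.

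Other genes of the cellulose synthesis machinery were examined from a list of 15, of which 14 were tested. Over both treatments 7 of the 14 were lower in er erl2 and 0 higher, against 13.7% lower and 14.1% higher among all genes. Their median log2 fold change was -0.15, against -0.01 over all genes. CSI1, which ties the synthase complex to cortical microtubules, fell by 0.36 (SE 0.0727, adjusted p = 0.00259) on the log2 scale. CC1, a companion of the complex that also binds microtubules, fell by 0.26 (SE 0.0533, adjusted p = 0.0025). COB, a wall protein needed for oriented microfibrils, had 277.5, 292.5 and 277.2 CPM in er erl2 under IAA, against 319.7, 323.3 and 318.7 CPM in wild type under IAA, and 285.3, 283.7 and 288.1 CPM in er erl2 under mock, against 307.9, 335 and 325 CPM in wild type under mock. Its libraries did not overlap between the genotypes, and it fell by 0.18 (SE 0.0347, adjusted p = 0.00154).

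KOR1, the membrane-bound endoglucanase that works with the complex, fell by 0.15 (SE 0.0359, adjusted p = 0.00569) on the log2 scale. SHOU4L, a relative of a protein that restrains delivery of the complex to the membrane, fell by 0.21 (SE 0.0587, adjusted p = 0.0156). STL2, a Golgi protein that helps assemble the complex, fell by 0.18 (SE 0.0453, adjusted p = 0.00878). CSI3, a relative of CSI1, fell by 0.17 (SE 0.0557, adjusted p = 0.0364), a call lost without any 1 of 7 libraries, namely er erl2 IAA replicate 3, er erl2 mock replicates 2 and 3, each wild type IAA replicate and wild type mock replicate 2, with a highest adjusted p of 0.0914. The calls of CSI1, CC1, COB, KOR1, SHOU4L and STL2 were kept in 18 of 18 alternatives. CTL1, a chitinase-like protein of the primary wall, was at -0.08 (SE 0.0329, adjusted p = 0.0752). Under IAA alone 2 of the 14 were lower (COB and CSI1), against 6.84% of all genes, and under mock alone 4 (CC1, COB, CSI1 and SHOU4L), against 7.33%. Of the calls within 1 treatment, CC1 kept its own in 19 of 19 alternatives, COB in 13 under each treatment, CSI1 in 14 under IAA and 11 under mock, and SHOU4L in 9. With IAA, 0 of the 14 were called in er erl2, against 1.53% of all genes, and 0 in wild type, against 1.21%.

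**Figure D5:**
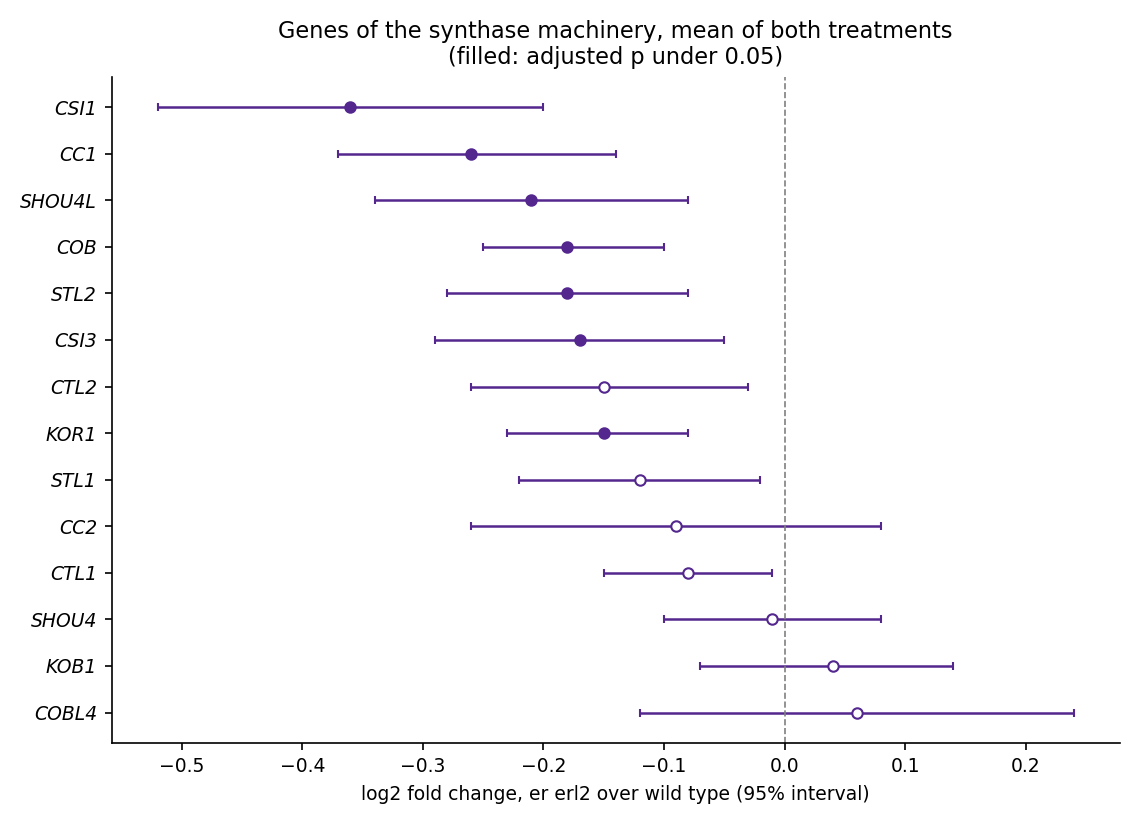
Log2 fold change of er erl2 over wild type across both treatments (horizontal axis) for the 14 tested genes that act with the synthase complex, with 95% intervals; filled points have an adjusted p under 0.05. The 7 filled points lie left of 0, from -0.36 for CSI1 to -0.15 for KOR1.

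The related CSLD genes, which make cell wall glucan in tip-growing and dividing cells, had 0 of 4 tested genes called in each comparison, against 27.8% of all genes over both treatments, 14.0% under IAA and 15.7% under mock. Their median log2 fold change over both treatments was -0.13, against -0.01 over all genes. Of the regulators of the secondary wall, which include activators and VNI2, 9 of 13 were tested. VNI2, a NAC protein that restrains the vessel regulator VND7, was the single one of 9 called over both treatments, against 27.8% of all genes, and was higher by 0.31 (SE 0.0885, adjusted p = 0.0221). That call was lost without er erl2 mock replicate 2 or 3 or wild type IAA replicate 2, with a highest adjusted p of 0.0546. Under mock VNI2 was higher by 0.45 (SE 0.126, edgeR adjusted p = 0.0335), called in 14 of 19 alternatives. Under IAA it was higher by 0.17 (SE 0.125, edgeR adjusted p = 0.401). Of 8 xylan and lignin genes, FRA8, an enzyme of xylan synthesis, was the single one called, again against 27.8% of all genes. It was higher by 0.40 (SE 0.135, adjusted p = 0.0449), and its call was kept in 5 of 18 alternatives. It was lost without any library but er erl2 IAA replicate 1 and wild type mock replicate 1, with a highest adjusted p of 0.0979. Under mock FRA8 was higher by 0.66 (SE 0.192, edgeR adjusted p = 0.0386), called in 10 of 19 alternatives. Under IAA it was higher by 0.15 (SE 0.191, edgeR adjusted p = 0.664). The genotype by IAA interaction was called for neither VNI2 nor FRA8. The xylem markers, which are expressed in the same cells as CESA4, CESA7 and CESA8, summed to 144.7 to 165.1 CPM in er erl2 and 141.1 to 169.5 CPM in wild type, and 0 of 6 were called over both treatments, against 27.8% of all genes. VND6 and VND7 stand in this list and in that of the regulators, so the lists are not independent. Median levels of single xylem markers ran from 0.933 to 81.1 CPM, so the sum is weighted to the abundant ones.

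Markers of other cell types moved with genotype beside the primary wall genes. Over both treatments 3 of 4 root hair markers were lower in er erl2 (COBL9, EXPA7 and PRP3), against 13.7% of all genes, and the marker sum was 41.1 to 57.8 CPM in er erl2 and 56.1 to 82 CPM in wild type. The call of COBL9 was lost without any 1 of er erl2 IAA replicates 2 and 3, each wild type IAA replicate and wild type mock replicate 2, with a highest adjusted p of 0.067. The fourth root hair marker was at a log2 fold change of 0.0047 over both treatments. Under mock alone 2 of the 4 root hair markers were called lower, against 7.33% of all genes, and under IAA alone 0, against 6.84%. All 4 photosynthetic shoot markers were higher over both treatments, against 14.1% of all genes, with a sum of 26347 to 29662 CPM in er erl2 and 22391 to 25873 CPM in wild type. Under mock alone 3 of these 4 were called higher, against 15.7% of all genes called in either direction, and under IAA alone 1, against 14.0%. No marker of either list was at 0 in any group. With IAA in wild type, 1 of the 4 root hair markers was called lower (edgeR adjusted p = 0.0125), against 1.21% of all genes called. Over both genotypes 1 was called lower with IAA (edgeR adjusted p = 0.00231), against 2.65% of all genes called. Whether the root hair list follows cell number was not tested. The part of the genotype shifts of both lists in the levels of CESA1, CESA3, CESA6 and the synthase partners was not tested.

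The place of the members relative to the mutated genes was described as well. CESA3 starts 697 kb from ERL2 on chromosome 5, and CESA5 845 kb from it. On chromosome 2, CESA10 starts 341 kb from ER and CESA9 1924 kb from it. Among the 40 tested genes nearest to CESA3, 12 (30%) were called over both treatments, against 27.8% of all genes, 10 (25%) under mock, against 15.7%, and 10 (25%) under IAA, against 14.0%. Around CESA1 the shares were 25%, 7.5% and 5% in the same comparisons. Around CESA6 they were 32.5% over both treatments and 10% under mock. Over both treatments the share was 27.5% around CESA9 and 25% around CESA2. CESA6 lies 23654 kb from ERL2, and CESA1 is on chromosome 4, which holds neither mutated gene. The part of linkage in the CESA3 and CESA9 differences was not tested.

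The genes whose pattern over the 12 libraries was most like that of the primary wall core were sought by Pearson's r with the mean log2 CPM of CESA1, CESA3 and CESA6. The 5 highest were ZWI (AT5G65930, a kinesin-like calmodulin-binding protein) with r = 0.974, AT4G12770 with r = 0.969, AT5G09620 with r = 0.964, NEF1 (AT5G13390) with r = 0.963 and CPL3 (AT2G33540) with r = 0.962. Of the synthase partners, COB ranked at place 14 with r = 0.95 and CSI1 at place 16 with r = 0.946. KOR1 ranked at place 433 with r = 0.869 and CTL1 at place 3168 with r = 0.614. For the mean of CESA4, CESA7 and CESA8 the 5 highest were AT2G09420 with r = 0.892, AT2G32760 with r = 0.87, AT3G44970 with r = 0.862, AT2G36355 with r = 0.839 and Hrd1A (AT3G16090) with r = 0.832. With this profile the xylem protease gene XCP1 had r = 0.303, and COBL4, a relative of COB that acts in secondary walls, had r = -0.324. All values come from the same 12 libraries, the first profile carries the genotype difference, and the correlations are given as descriptions over libraries of 4 groups.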

How the data were processed

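The authors deposited 1 table of raw counts per gene for 37336 Arabidopsis loci in 12 libraries. Per the labels' protocols, the libraries were directional and made from poly-A RNA. The submitters' processing notes name bcl2fastq, STAR 2.7.6a, featureCounts 2.0.0 and TAIR10, and the annotation and strand setting of the counting are not given in the sources used here. Counts were tested with edgeR 4.0.16 in R 4.3.3 (filterByExpr, minimum count 10 and total 15, TMM scaling, robust quasi-likelihood, 1 mean per group over all 12 libraries). P-values were adjusted by Benjamini-Hochberg over all 21376 genes tested, and a gene is called at an adjusted p under 0.05. The biological coefficient of variation was 0.102. SE was derived from the fold change and its F statistic. CPM is the count scaled to the TMM-adjusted library, and RPKM divides it by exon length from the RefSeq annotation of TAIR10.1, in which 37051 loci were found. Sequences are RefSeq's. Precision is limited by 3 libraries per group, and 3 counts per library were taken as the floor.

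Replicate numbers were not taken to pair the samples. As alternatives, the count filter was dropped or set to a mean CPM of 1, TMM was replaced by the size factors of DESeq2 1.42.0, its Wald test or voom of limma 3.58.1 was used, the replicate number entered as a block, the compared groups were fitted alone, and single libraries were left out. All 10 members are named, with ER and ERL2, KOR1, CSI1, COB and CTL1, the list genes called in a comparison, and the 5 genes most like each profile. CRC, SESA1, SESA2, SESA3, BAN, TT10, XCP1 and COBL4 were named after their values were seen. VND6 is named for its place in both the regulator and the xylem marker list. The members and lists were chosen with earlier results of these data known. The procedure was tested on simulated data.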

Additional observations from a re-analysis of the deposited data

How the results depend on the processing

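Counts of members called moved by at most 1.5 times in all 46 recomputations with another filter, scaling, test or fit. Leaving out 1 library gave 1 to 4 members under mock in place of 3, with 1 left without er erl2 mock replicate 2 or 3 or wild type mock replicate 2 or 3. It gave 3 to 5 over both treatments in place of 5, with 3 left without er erl2 IAA replicate 1, er erl2 mock replicate 1, wild type IAA replicate 2 or 3 or wild type mock replicate 2 or 3. By the replicate numbers of the labels, same-numbered libraries did not deviate together. Their 18 correlations between groups ran from -0.175 to 0.094, while 6 of 36 between unlike numbers exceeded 0.1. Not each library thus correlated best with its own number. The column headers of the deposited counts carry other library numbers, which differ from the replicate numbers in each group but wild type mock. Pairing by those header numbers was not tested. With the replicate block, 3 members were called under mock, 2 under IAA and 4 over both treatments. The block removed the calls of CESA1 under mock (adjusted p = 0.0505) and CESA2 over both treatments (adjusted p = 0.0553) and added CESA9 under mock (adjusted p = 0.0473). Leaving out 1 library turned the sign of uncalled values alone: CESA5 ranged from -0.23 to 0.049 under mock, from -0.051 to 0.090 over both treatments and from -0.12 to 0.16 with IAA in wild type, and CESA7 from -0.13 to 0.059 under mock. CESA6 under mock was lost when the groups compared were fitted alone (adjusted p = 0.0549), and CESA2 over both treatments with no count filter (adjusted p = 0.0551) or a mean CPM of at least 1 (adjusted p = 0.0535). The cause was not tested. Over all genes, DESeq2 called 411 with IAA in wild type in place of 259, 617 in er erl2 in place of 328 and 860 over both genotypes in place of 566, and the fit of the groups compared called 172 in wild type. Leaving out 1 library moved 10 of 84 such counts over all genes by more than 1.5 times, among them 164 with IAA in wild type without wild type mock replicate 2 and 561 in er erl2 without er erl2 IAA replicate 2. Of 20 recomputed median levels per length, 8 moved by more than 1 SD, all with coding in place of exon length, and the order of the members by median was kept. Depth limits CESA9 and CESA10, at 57 counts or fewer per library.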
